A study of Mus musculus with 12 samples.

Results

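Transcripts of the proteasome subunits were measured in mouse T-cell acute lymphoblastic leukemia (T-ALL) lines treated with PKF118-310, a small molecule that blocks β-catenin from binding Tcf proteins, and in controls of the same lines. The subunits were the genes whose symbols read Psma, Psmb, Psmc or Psmd followed by a number, leaving out the immunoproteasome subunits Psmb8, Psmb9 and Psmb10. Of 52535 gene symbols in the data, 36 met this rule, 16 of them in the core (Psma and Psmb) and 20 in the regulatory particle (Psmc and Psmd). The libraries came from 3 lines, named 240, 242 and 352. Every library, control or treated, carried both transgenes, Akt2 and Dlx5, each driven by the Lck promoter, which is active in T cells. A line is a tumor line grown in culture, so its cells stand for a single mouse. The groups were PKF118-310, with 3 libraries, and control, with 3 libraries, 1 of each per line. Controls were placebo-treated according to the study.

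The proteasome degrades proteins that have been tagged with ubiquitin. Its core is a barrel of stacked rings. The outer rings are built from alpha subunits (Psma), which form the gate, and the inner rings from beta subunits (Psmb), of which Psmb5, Psmb6 and Psmb7 carry the cutting sites. The regulatory particle sits on the end of the barrel. Its ATPases (Psmc) unfold the substrate and feed it through the gate, and its other subunits (most Psmd) bind and remove ubiquitin or hold the particle together. Psmd5, Psmd9 and Psmd10 are chaperones that help to build the ATPase ring and are not part of the finished particle. In many mammalian cells the subunit genes are transcribed together, with the factor encoded by Nfe2l1 raising them when proteasome activity falls short.

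Total counts were 3160824, 604984 and 13766638 in the PKF118-310 libraries of lines 240, 242 and 352, against 4031144, 3354980 and 13221186 in their controls. The treated library of line 242 stood apart. It had the lowest depth, 11.8% of its counts came from mitochondrial genes (1.84% to 3.10% in the 5 other libraries), and it nevertheless had counts for 21241 genes, more than any other library. Of 11 T-cell markers, 9 were counted in every library. The summed T-cell list stood at 5901, 2562 and 3395 counts per 1000000 library counts (CPM) in PKF118-310 libraries of lines 240, 242 and 352, against 5393, 5192 and 3841 CPM in controls, so that line 242 had the widest gap. Rag1, which cuts T-cell receptor genes, had 213 CPM in treated cells of line 242 and 1372 CPM in its control. Cd3e went the other way in that line, with 250 CPM in treated cells and 181 CPM in the control, as did Cd2 with 2 counts against 1. Cd2 was at or near 0 in all libraries. The erythroid list reached at most 2 counts, while Pax5, a B-cell marker, had 43 counts in the treated library of line 242. Counts and medians are therefore given for all 3 lines and for lines 240 and 352 without line 242, and named subunits first for lines 240 and 352. The part of depth, mitochondrial share and the lower sum of T-cell markers in the difference of line 242 was not tested.

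The core and the regulatory particle made up a larger share of the messenger RNA after PKF118-310 in lines 240 and 352, and a smaller share in line 242. Summed over the 36 genes, the subunits took 5801 CPM in treated cells of line 240, against 4627 CPM in its control, a ratio of 1.25 (95% counting interval 1.23 to 1.28). In line 352 the sum was 6219 CPM after treatment and 5435 CPM in the control, a ratio of 1.14 (1.13 to 1.16). Line 242 had 3420 CPM in treated cells and 4704 CPM in the control, a ratio of 0.727 (0.694 to 0.761), in the library where the summed T-cell markers were also lower. Since these are bulk libraries, a lower sum cannot be told apart from fewer cells of a kind or less RNA per cell.

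**Figure D1:**
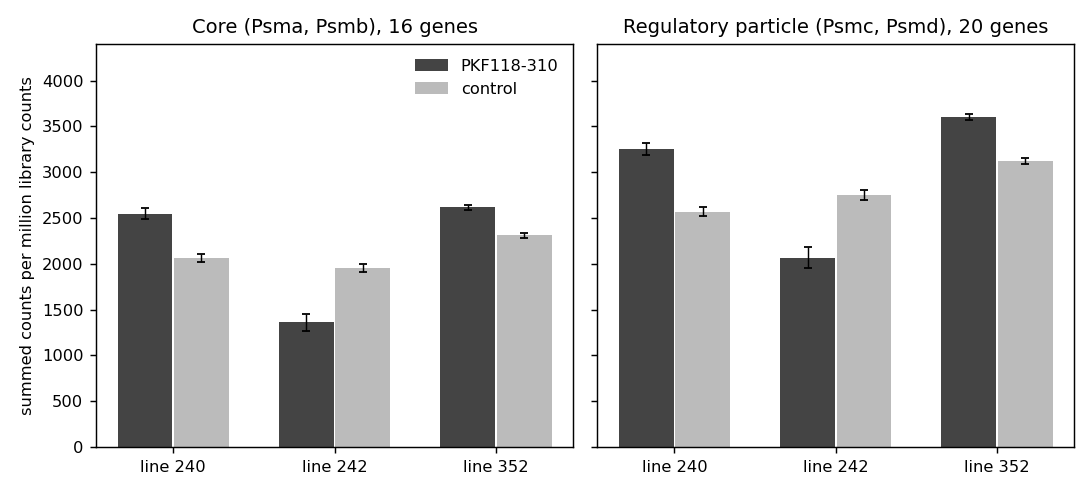
Summed counts of the 16 core genes (left) and 20 regulatory particle genes (right) as CPM on the y axis, in the PKF118-310 library (dark) and control library (light) of each line, with 95% exact counting intervals as bars. The treated bar is the higher one in lines 240 and 352 and the lower one in line 242, for core and regulatory particle alike.

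The core and the regulatory particle moved by similar amounts. Core genes summed to 2549, 1359 and 2617 CPM in PKF118-310 libraries of lines 240, 242 and 352, against 2060, 1955 and 2312 CPM in controls. Regulatory particle genes summed to 3252, 2061 and 3601 CPM in PKF118-310 libraries, against 2567, 2750 and 3123 CPM in controls. The ratio of core to regulatory counts was 0.784, 0.659 and 0.727 after PKF118-310 and 0.802, 0.711 and 0.740 in controls. In each line the counting interval of the change in this ratio included 0 on the log2 scale, with the bounds -0.09 and 0.03 in line 240, -0.24 and 0.03 in line 242, and -0.06 and 0.002 in line 352. Within the regulatory particle, the ratio of the 6 ATPases to the 11 other structural subunits was 0.509 in treated cells of line 240 and 0.474 in its control, and 0.500 in treated cells of line 352 and 0.460 in its control. The intervals of these changes lay above 0 (0.02 to 0.19 and 0.08 to 0.16 on the log2 scale), while that of line 242 spanned 0 (-0.12 to 0.25). These intervals cover counting error only, since each line had 1 library per group.

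Per kilobase of exon, the levels of the 34 subunits with enough counts to test ran from 3.81 to 194.5 CPM per kb in treated cells of line 240, with a median of 57.0, against 3.89 to 151.0 with a median of 45.0 in its control. The median in line 352 was 60.6 CPM per kb after treatment and 55.1 in the control, and in line 242 it was 35.9 after treatment and 48.3 in the control. Psma6, an alpha ring subunit, had the highest level in 5 of the 6 libraries, and Psmc1, an ATPase, had it in the treated library of line 242. Such ranks depend on the length used, the union of all exons, which was 1234 bases for Psma6 and 2370 for Psma4. The longest coding transcripts of these genes had 1042 and 1165 bases. The chaperone Psmd9 was lowest in all 6 libraries, and the chaperones Psmd5 and Psmd10 were next to it on average. The tissue-specific subunits were nearly silent. Psma8, the alpha subunit of the testis, had 0 counts in every library, which allows up to 4.96 CPM in the treated library of line 242 and at most 0.949 CPM in each of the others. Psmb11, the beta subunit of the thymic cortical epithelium, had 0, 7 and 2 counts in PKF118-310 libraries of lines 240, 242 and 352, against 0 counts in every control, and was too low to test. The list of 5 thymic epithelial markers summed to 36.7, 46.3 and 26.4 CPM in PKF118-310 libraries, against 59.0, 5.66 and 46.7 CPM in controls, and was higher after treatment in line 242 alone. Most of it was Ly75, with 13 counts in treated cells of line 242 and 19 in its control. Epcam had 1, 11 and 10 counts in PKF118-310 libraries, against 0, 0 and 3 in controls. Foxn1 had 4 counts in treated cells of line 242 and 0 elsewhere, and Krt5 and Krt8 had 0 counts apart from 1 each in treated cells of line 352. The part of these markers in the Psmb11 counts was not tested.

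**Figure D2:**
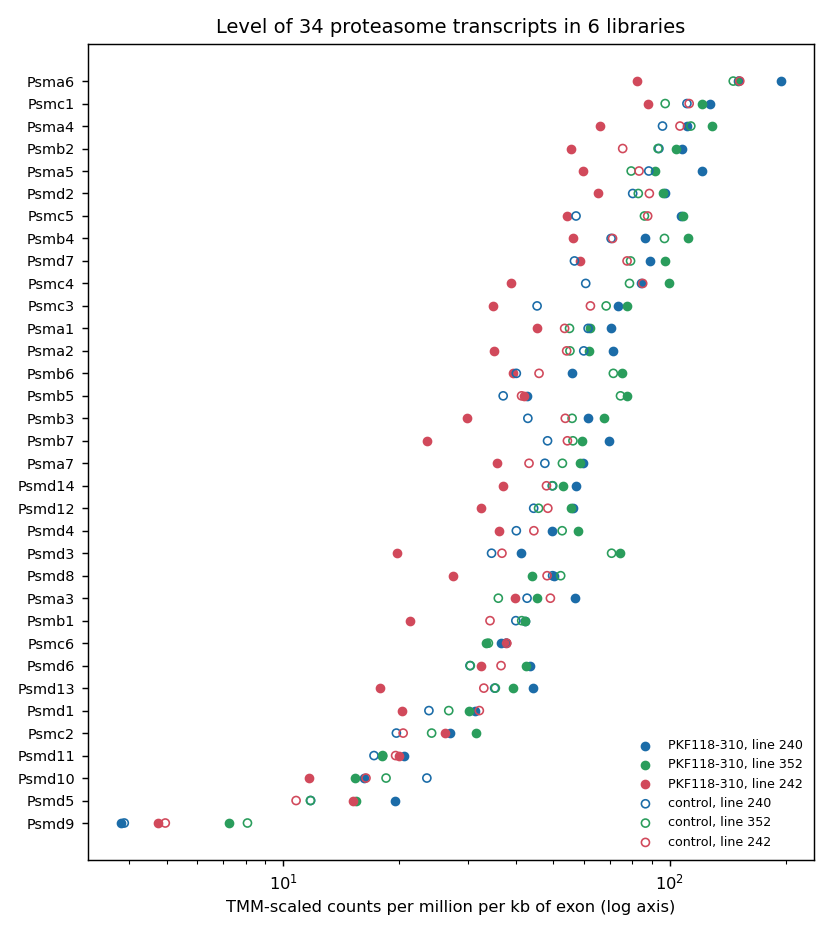
Level of each of 34 subunits, in TMM-scaled CPM per kilobase of exon on a log x axis, with filled points for PKF118-310 libraries and open points for controls, colored by line, and subunits ordered by their mean. Psma6 is at the top and Psmd9 at the bottom, and the filled points of line 242 lie to the left of the other points for most subunits.

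Whether PKF118-310 changed single subunits was tested with edgeR's quasi-likelihood F test with the line as a block, and p-values were adjusted over all genes tested. In the fit of 3 lines 0 of 34 subunits passed an adjusted p of 0.05, as did 0% of all 10331 genes. The unadjusted p was below 0.05 for 2 subunits, Psmd5 and Psmc2, and for 570 genes in all. DESeq2 and edgeR's likelihood ratio test also called 0 subunits, and limma voom with sample weights called 3. Over all genes these tests called 35, 56 and 327 higher and 10, 29 and 474 lower. The median log2 change was 0.09 over the 34 subunits, 0.09 over the core and 0.07 over the regulatory particle, against 0.01 over all genes.

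In the fit of lines 240 and 352 alone, 8 of 34 subunits were higher after PKF118-310 and 0 were lower (unadjusted p below 0.05 for 18 and 1). Among all 11760 genes, 5.01% were higher and 5.92% were lower. The median log2 change was 0.24 over the subunits, 0.22 over the core and 0.25 over the regulatory particle, against -0.01 over all genes, and 30 of 34 estimates were above 0. By class, 1 of 7 alpha subunits, 1 of 7 beta subunits, 3 of 6 ATPases, 2 of 11 other structural subunits and 1 of 3 chaperones rose. This fit rests on 4 libraries. Without the block, and with DESeq2, 0 of the 34 subunits passed (unadjusted p below 0.05 for 2 and 9). Of all 11760 genes, 0 passed without the block, and DESeq2 called 107 higher and 158 lower, against 589 and 696 in the main fit. The unadjusted p was below 0.05 for 289 genes without the block and 1159 with DESeq2.

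**Figure D3:**
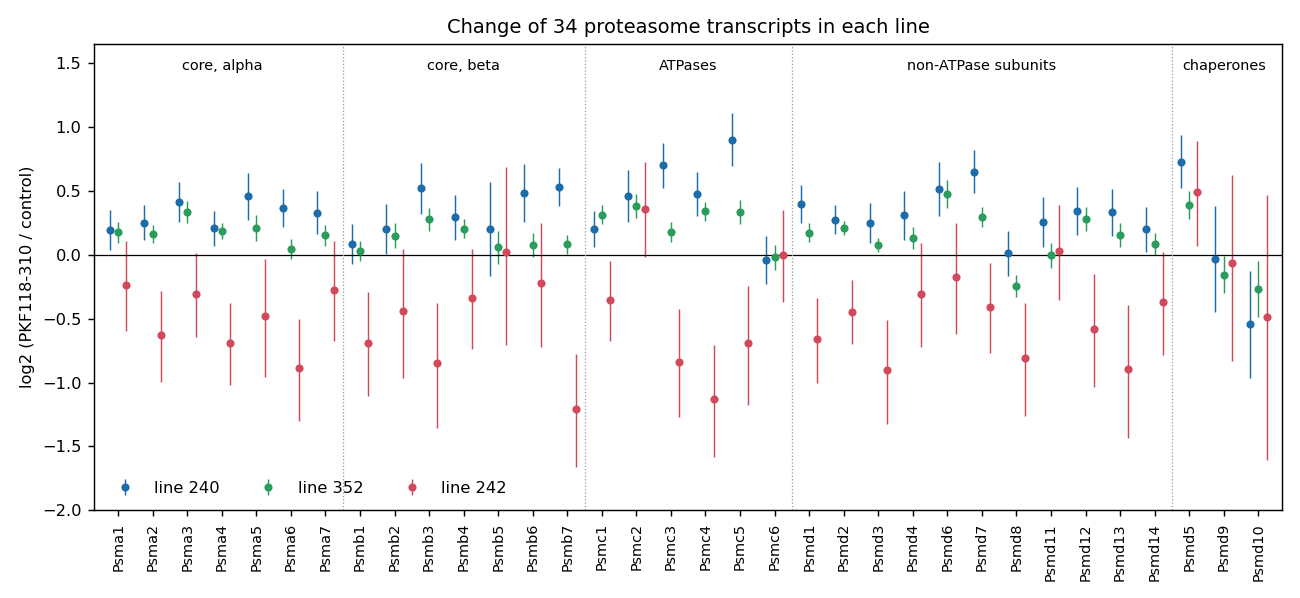
Log2 ratio of PKF118-310 over control (y axis) for 34 subunits, grouped by class on the x axis, in lines 240 (blue), 352 (green) and 242 (red), each from 1 library per group, with 95% counting intervals as bars. Most blue and green points lie above 0 and most red points below it, and Psmd5 is above 0 and Psmd10 below 0 in all 3 lines.

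Within single lines, the 34 subunits had a median log2 change of 0.32 (line 240), 0.17 (line 352) and -0.44 (line 242). The counting interval lay above 0 for 28 of 34 subunits in line 240, where this held for 17.9% of all genes. The same was seen for 24 of 34 in line 352 (29.0% of all genes). In line 242 the interval lay below 0 for 18 of 34 subunits, against 23.9% of all genes. An interval narrows as counts grow, and all genes were not matched to the subunits by counts, so these shares are a rough comparison. In line 352 the lanes differed by more than counting error (chi-square per degree of freedom 2.05 and 2.01), so its intervals are too narrow. A change above 0 in lines 240 and 352 with a change below 0 in line 242 was found for 26 subunits (20.3% of all genes), among them 13 of the 14 core subunits tested. Only Psmd5, Psmc2 and Psmb5 were above 0 in all 3 lines (13.9% of all genes), and Psmd10, Psmd9 and Psmc6 were below 0 in all 3 (18.7% of all genes). Of these subunits, only Psmd5 had counting intervals on 1 side of 0 in every line. Psmb5 was close to 0 in line 242 (0.02, interval -0.705 to 0.687), and its intervals included 0 in the other lines too. In line 242 the intervals of Psmc2 (-0.015 to 0.724) and Psmd10 (-1.604 to 0.469) also included 0. In line 242 Psmd9 and Psmc6 were close to 0 (-0.07 and -0.004), with counting intervals on both sides of it. Their side there depends on the scaling, which sets line 242 lower within lines than in the fit. Psmc6 had a log2 change of 0.01 in the fit of 3 lines. The fall in line 242 was seen under each of 4 scalings. Medians ran from -0.27 with mitochondrial counts left out of the totals to -0.43 with TMM factors applied to all counts. Median-ratio size factors gave -0.32. These medians used a smaller count offset than the -0.44 above. Leaving out mitochondrial counts moved the median of all genes in that line to 0.10, against -0.06 with TMM. The size of the fall thus depends on the scaling. The median of the subunits less that of all genes was -0.37 under each, which follows from the arithmetic. A scaling shifts all genes of a line by the same log2 amount, so this value cannot differ between scalings.

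**Figure D4:**
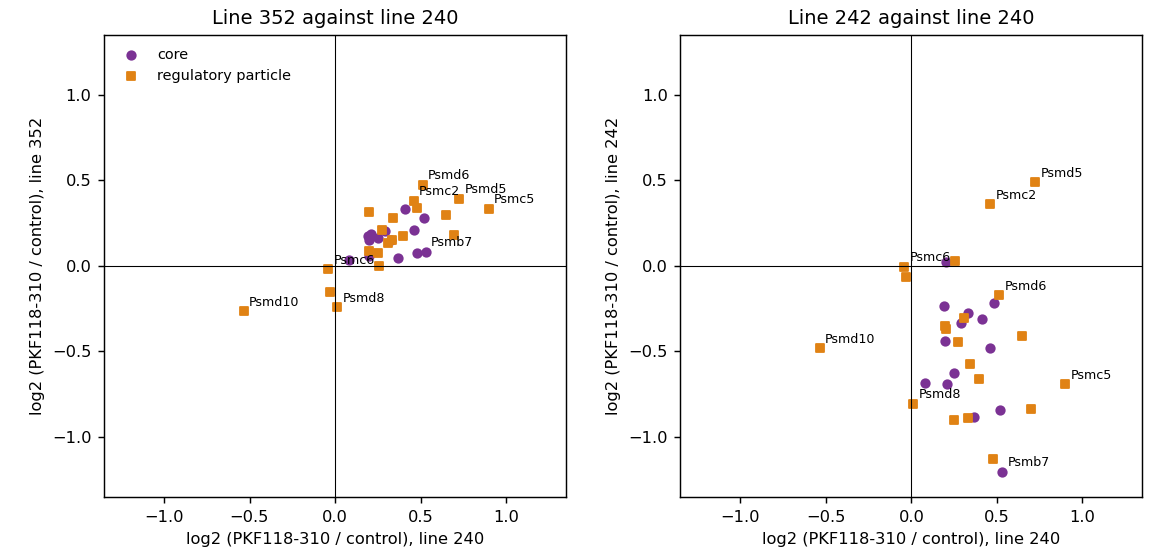
Log2 ratio of PKF118-310 over control in line 352 (left, y axis) and line 242 (right, y axis) against that in line 240 (x axis), with 1 point for each of 34 subunits, circles for the core and squares for the regulatory particle. The points in the left panel rise together (r = 0.75 over 34 subunits), and those in the right panel do not (r = -0.07).

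The changes of lines 240 and 352 were ranked alike in the regulatory particle more than in the core. Across the 34 subunits, Pearson's r between these lines was 0.75 and Spearman's rho was 0.65, against 0.48 and 0.51 across all genes. Over the 20 regulatory particle genes r was 0.81 (rho 0.81), and over the 14 core genes it was 0.30 (rho 0.31). The 20 include the 3 chaperones, so r, rho and the SDs below rest in part on them. In lines 240 and 352, Psmd5 (0.725 and 0.392) and Psmd10 (-0.535 and -0.266) lay toward opposite ends. Between line 242 and the others r was -0.07 (line 240) and 0.13 (line 352). Subunits are not independent replicates, and the 3 lines differ in depth, so these values are a description. The regulatory particle varied more than the core in each line, with SDs of the log2 changes of 0.32 and 0.14 in line 240, 0.21 and 0.09 in line 352, and 0.43 and 0.33 in line 242. Over all genes, the SDs were 0.52, 0.47 and 1.32 for lines 240, 352 and 242.

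The chaperones went separate ways. Psmd5 (chromosome 2, 34849734 to 34874968, mm10), which binds the ATPase Psmc2 while the ring is built, was at 141, 109.9 and 112 TMM-scaled CPM in PKF118-310 libraries of lines 240, 242 and 352, against 85.2, 78.2 and 85.1 CPM in controls. All 3 treated libraries were above all 3 controls, with no overlap. The share of all genes without overlap was not counted, so no such separation is set against a background, here or for the subunits below. The log2 change of Psmd5 was 0.54 ± 0.12 (SE) in lines 240 and 352 (edgeR adjusted p = 0.0117). It was 0.57 ± 0.15 in all 3 lines, where Psmd5 did not pass (edgeR adjusted p = 0.842, unadjusted p = 0.0118). Psmd5 also had the smallest p of the 34 subunits in both fits.

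Psmd10, the chaperone gankyrin (chromosome X, 140948429 to 140956728), was at 23.8, 17.2 and 22.5 CPM in PKF118-310 libraries, against 34.6, 24.1 and 27.1 CPM in controls. Every treated library was below every control after TMM scaling, by a narrow margin between treated line 240 (23.8 CPM) and control line 242 (24.1 CPM). These libraries had 75 of 3160824 and 77 of 3354980 counts, so by library totals alone their order is reversed and the groups overlap. The treated library of line 242 had 10 counts. The log2 change was -0.38 ± 0.17 in lines 240 and 352 (edgeR adjusted p = 0.176) and -0.39 ± 0.20 in 3 lines (adjusted p = 0.842), and neither passed. Psmd9, the remaining chaperone, had 27.6, 34.4 and 52.7 CPM in PKF118-310 libraries, against 28.2, 36.0 and 58.7 CPM in controls. Its treated and control libraries overlapped, and the levels followed the line more than the treatment.

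Among the ATPases, Psmc5 (chromosome 11, 106256154 to 106263120) was at 149, 75.6 and 151 CPM in PKF118-310 libraries of lines 240, 242 and 352, against 79.8, 122 and 119.9 CPM in controls. The treated libraries of lines 240 and 352 were the highest of the 6 and that of line 242 was the lowest. The log2 change was 0.58 ± 0.13 in lines 240 and 352 (edgeR adjusted p = 0.0147), the largest estimate among the subunits in that fit, and 0.27 ± 0.30 in 3 lines. Psmc2 (chromosome 5, 21785283 to 21803787) had 136, 132 and 159 CPM after PKF118-310, against 98.8, 103 and 122 CPM in controls. All treated libraries were above all controls, as for Psmd5. Its log2 change was 0.42 ± 0.10 in lines 240 and 352 (edgeR adjusted p = 0.0238) and 0.44 ± 0.13 in 3 lines (adjusted p = 0.842).

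Psmc4 (chromosome 7, 28041707 to 28050101), another subunit of the ATPase ring, was at 183, 84.2 and 215 CPM in PKF118-310 libraries, against 131, 184 and 170.3 CPM in controls. In line 242 the treated value was far below every other library. The log2 change was 0.40 ± 0.11 in lines 240 and 352 (edgeR adjusted p = 0.0301) and 0.00 ± 0.33 in all 3 lines. Psmc6 stayed flat in each line, with 128, 132 and 117 CPM after PKF118-310 against 132, 133 and 119 CPM in controls. Its log2 change was -0.03 ± 0.10 in lines 240 and 352. The other ATPases, Psmc1 and Psmc3, had log2 changes of 0.26 and 0.41 and did not pass (edgeR adjusted p = 0.147 and 0.0556).

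**Figure D5:**
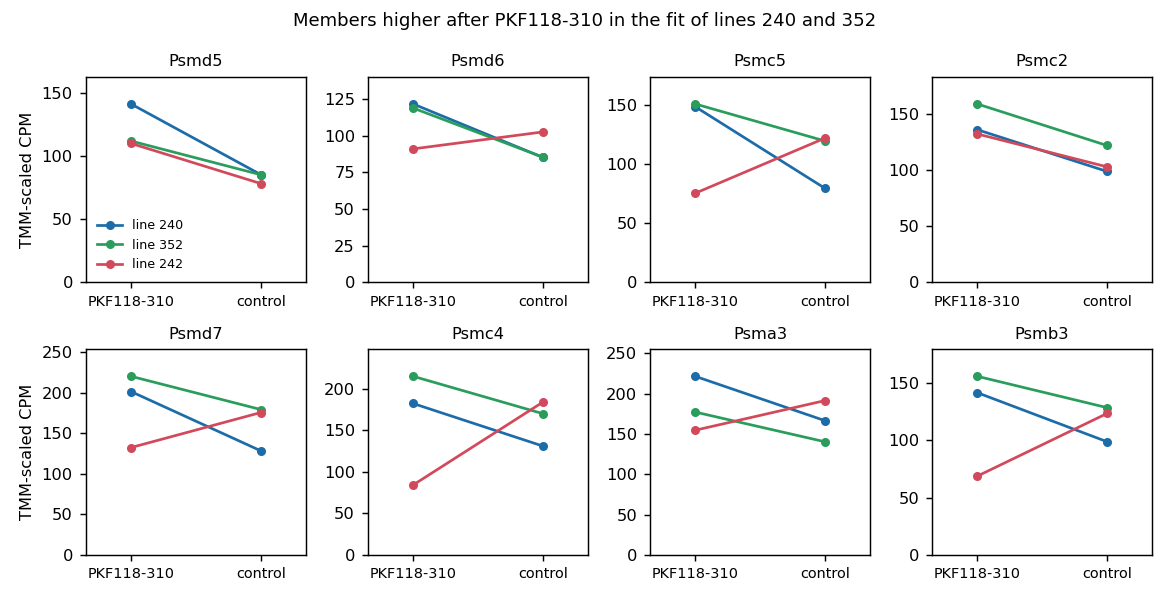
TMM-scaled CPM (y axis, from 0) in the PKF118-310 library (left) and the control library (right) of each line, for the 8 subunits that were higher after PKF118-310 in the fit of lines 240 and 352, with a line joining the libraries of a cell line. Psmd5 and Psmc2 are higher after treatment in all 3 lines, and the other 6 are higher in lines 240 and 352 and lower in line 242.

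Of the structural subunits without ATPase activity, Psmd6 and Psmd7 rose in lines 240 and 352. Psmd6 (chromosome 14, 14112174 to 14120984), a subunit of the lid, had 122, 91.0 and 119 CPM in PKF118-310 libraries of lines 240, 242 and 352, against 85.2, 103 and 85.4 CPM in controls. The treated libraries of lines 240 and 352 were above all controls, and that of line 242 lay between the controls. The log2 change was 0.49 ± 0.11 in lines 240 and 352 (edgeR adjusted p = 0.0125) and 0.33 ± 0.18 in 3 lines. Psmd7 (chromosome 8, 107580381 to 107588464), the partner of the deubiquitinating subunit Psmd14, had 201, 132 and 220.1 CPM after PKF118-310, against 128, 175 and 179 CPM in controls. The log2 change in lines 240 and 352 was 0.46 ± 0.12 (edgeR adjusted p = 0.0244), and in 3 lines it was 0.24 ± 0.22. Psmd14 itself was at 161, 105 and 149 CPM after PKF118-310, against 140.1, 135 and 140.6 CPM in controls. It had a log2 change of 0.14 ± 0.10 in lines 240 and 352 and did not pass.

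The remaining lid and base subunits did not pass. Psmd12, a lid subunit, came closest, with 149, 85.9 and 148 CPM in PKF118-310 libraries, against 117.9, 128 and 121 CPM in controls and a log2 change of 0.31 ± 0.10 (edgeR adjusted p = 0.0768). Psmd11, also in the lid, had 131, 127 and 115 CPM after PKF118-310, against 109.7, 125 and 116 CPM in controls. The groups overlapped, and the change in line 352 was close to 0. Psmd8 was the only lid subunit with an estimate below 0 in the fit of lines 240 and 352, at -0.13 ± 0.11. It had 153, 84.2 and 135 CPM after PKF118-310, against 152, 147 and 159.7 CPM in controls, and was singled out after its values were seen. The large scaffold subunits Psmd1 and Psmd2 had log2 changes of 0.28 and 0.24, and the ubiquitin receptor Psmd4 had one of 0.21.

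In the core, each of the 14 subunits tested had an estimate above 0 in lines 240 and 352, from 0.06 to 0.38, and 2 passed. Psma3 (chromosome 12, 70974621 to 70996347), of the alpha ring, had 222, 155 and 177 CPM in PKF118-310 libraries of lines 240, 242 and 352, against 166.5, 191 and 140.3 CPM in controls. In lines 240 and 352 both treated libraries were above both controls, while in line 242 the treated library was below its control. The log2 change was 0.37 ± 0.10 in lines 240 and 352 (edgeR adjusted p = 0.0382) and 0.20 ± 0.18 in 3 lines. Psmb3 (chromosome 11, 97703399 to 97713500), a beta subunit without a cutting site, had 142, 68.7 and 156 CPM after PKF118-310, against 98.8, 124 and 129 CPM in controls. Its log2 change was 0.38 ± 0.11 in lines 240 and 352 (edgeR adjusted p = 0.0411) and 0.08 ± 0.27 in 3 lines.

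None of the other alpha subunits passed. Psma5 had 160.4, 79.0 and 121 CPM in PKF118-310 libraries, against 117, 110.1 and 105 CPM in controls, with a log2 change of 0.32 ± 0.11 in lines 240 and 352 (edgeR adjusted p = 0.0802). Psma7 had 184, 109.9 and 180.1 CPM after PKF118-310, against 146, 133 and 162 CPM in controls, and a log2 change of 0.23 ± 0.11. For both, the treated libraries of lines 240 and 352 lay above all controls. Psma6, the subunit with the highest level per kilobase, had 240.0, 101 and 186 CPM after PKF118-310, against 186, 187 and 180.2 CPM in controls. Its controls were nearly equal, and its treated libraries spread to both sides of them.

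The subunits that carry the cutting sites did not pass in either fit. Psmb5, the chymotrypsin-like subunit and the main target of proteasome inhibitor drugs, had 38.4, 37.8 and 69.9 CPM in PKF118-310 libraries of lines 240, 242 and 352, against 33.4, 37.2 and 67.1 CPM in controls. Its level was set apart by line, with line 352 high in both groups, and its log2 change was 0.11 ± 0.13 in lines 240 and 352 (edgeR adjusted p = 0.648). Psmb6, the caspase-like subunit, had 104.9, 73.9 and 141 CPM after PKF118-310, against 75.1, 86.0 and 134 CPM in controls (log2 change 0.25 ± 0.12, edgeR adjusted p = 0.218). Psmb7, the trypsin-like subunit, had 239, 80.7 and 204 CPM after PKF118-310, against 165, 186 and 192 CPM in controls. Its log2 change reached 0.53 in line 240 and 0.08 in line 352, against -1.20 in line 242, the lowest of any subunit in that line. With all 3 lines the log2 changes were 0.13 ± 0.15 for Psmb5, 0.17 ± 0.17 for Psmb6 and -0.10 ± 0.33 for Psmb7. Psmb4 had a log2 change of 0.24 ± 0.11 in lines 240 and 352, with 169, 109.9 and 218 CPM in PKF118-310 libraries against 138, 139 and 189 CPM in controls. Psmb1 had the smallest core estimate, 0.06 ± 0.10, with 195, 97.9 and 195 CPM after PKF118-310, against 184, 158 and 190.4 CPM in controls.

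Levels of some subunits differed between lines, though in a smaller share than among all genes. In the fit of lines 240 and 352, 11 of 34 subunits differed between the lines past the edgeR adjusted p of 0.05, as did 44.7% of all genes. Of the 11, 10 were higher in line 352 than in line 240. The largest log2 differences, line 352 over line 240, were 1.01 for Psmd9, 0.96 for the lid subunit Psmd3 and 0.95 for Psmb5 (edgeR adjusted p = 9.6e-05, 1.9e-05 and 8.7e-05). Psmd3 had 370.2 and 351 CPM in the PKF118-310 and control libraries of line 352, against 205 and 172 CPM in those of line 240. With all 3 lines in the fit, 0 of 34 subunits differed between lines (unadjusted p below 0.05 for 4), against 5.32% of all genes.

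Genes that replace, cap, build or feed the proteasome were described from lists of related genes. In lines 240 and 352, 0 of 3 immunoproteasome subunits, 1 of 5 activators and inhibitors, 0 of 7 assembly factors, 1 of 6 other proteins of the regulatory particle, 0 of 4 genes of the Nfe2l1 pathway, 2 of 12 genes for ubiquitin activation and delivery and 0 of 2 genes of the Nfe2l2 pathway rose, and 0 fell, against 5.01% and 5.92% of all genes. None passed in the fit of 3 lines, where the unadjusted p was below 0.05 for 2 of the delivery genes. Of the immunoproteasome subunits, which take the place of Psmb5, Psmb6 and Psmb7 in immune cells, Psmb8 had a log2 change of 0.32 ± 0.12 (edgeR adjusted p = 0.104) and Psmb10 of 0.05 ± 0.18. Summed counts of the immunoproteasome subunits over those of Psmb5, Psmb6 and Psmb7 were 0.753, 0.616 and 0.611 in PKF118-310 libraries of lines 240, 242 and 352, against 0.792, 0.404 and 0.605 in controls. Lines 240 and 352 kept nearly the same ratio in both groups, and line 242 had the widest gap.

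Psme2, a subunit of an interferon-inducible cap that opens the gate, had 69.7, 56.7 and 90.8 CPM in PKF118-310 libraries, against 53.9, 51.6 and 66.6 CPM in controls (log2 change 0.42 ± 0.12 in lines 240 and 352, edgeR adjusted p = 0.0407, and 0.37 ± 0.15 in 3 lines). Psme3, which forms a nuclear cap, had a log2 change of 0.31 ± 0.11 (edgeR adjusted p = 0.0928). Adrm1, a ubiquitin receptor of the regulatory particle, had 73.2, 60.1 and 87.2 CPM after PKF118-310, against 48.7, 82.6 and 67.0 CPM in controls (0.46 ± 0.12, edgeR adjusted p = 0.0292, and 0.25 ± 0.22 in 3 lines). Zfand5, which binds the particle, had a log2 change of 0.35 ± 0.11 and did not pass (edgeR adjusted p = 0.0529). Of the assembly factors, Pomp, the maturation protein of the core, had a log2 change of 0.26 ± 0.11 (edgeR adjusted p = 0.147) and Akirin2, which carries proteasomes into the nucleus, of -0.31 ± 0.13 (edgeR adjusted p = 0.168). In the Nfe2l1 pathway, the ubiquitin ligase Syvn1 had 0.36 ± 0.14 and the protease Ddi2, which cuts the Nfe2l1 protein, had 0.28 ± 0.11 (edgeR adjusted p = 0.117 and 0.137). Keap1 and Nfe2l2 had log2 changes of 0.24 and 0.17 and did not pass.

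The delivery genes that passed were higher after PKF118-310 in line 242 as well. Sqstm1, a receptor that delivers ubiquitinated proteins to autophagy, had 199.7, 524 and 220.1 CPM in PKF118-310 libraries of lines 240, 242 and 352, against 130.2, 136 and 169 CPM in controls (0.49 ± 0.11, edgeR adjusted p = 0.0142). Zfand2a, a stress-induced protein that binds the proteasome, had 39.9, 85.9 and 31.4 CPM after PKF118-310, against 23.7, 36.0 and 21.9 CPM in controls (0.61 ± 0.16, edgeR adjusted p = 0.0296). For both genes the largest change stood in line 242, with log2 changes of 1.94 for Sqstm1 and 1.25 for Zfand2a. With all 3 lines the log2 changes were 0.995 ± 0.37 for Sqstm1 and 0.85 ± 0.22 for Zfand2a, and neither passed (edgeR adjusted p = 0.842 for both). The summed subunits were lower after treatment in line 242.

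Promoter sequence was examined because the subunits of lines 240 and 352 moved in the same direction. RefSeq windows of 250 bases before to 50 after the transcript start were held for 29 of the 36 subunits (GRCm38.p6). The letters TGACNNNGC, the core of the antioxidant response element, to which the Nfe2l1 and Nfe2l2 proteins bind with small Maf partners, were found on either strand in 5 of 29 subunits (17.2%) and in 14.0% of 27025 genes. The subunits were Psmb5, Psmb6, Psmc6, Psmd9 and Psmd12, and 0 of the 7 windows of subunits that rose in lines 240 and 352 had a match. These matches are shown with flanking bases, 5′ to 3′ on the strand of the gene, with the match in capitals.
Psmb5, chr14:54618009-54618067, minus strand: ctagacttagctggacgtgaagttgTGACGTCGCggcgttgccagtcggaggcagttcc
Psmb6, chr11:70525323-70525356, plus strand: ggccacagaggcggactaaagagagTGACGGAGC
Psmc6, chr14:45329574-45329630, plus strand: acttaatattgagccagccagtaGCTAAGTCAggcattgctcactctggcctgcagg
Psmd9, chr5:123228134-123228189, plus strand: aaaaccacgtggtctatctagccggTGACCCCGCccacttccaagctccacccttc
Psmd12, chr11:107479278-107479314, plus strand: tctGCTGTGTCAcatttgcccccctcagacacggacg

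The letters CTTTGA, the core of the sites that Tcf proteins bind, were searched because PKF118-310 acts on β-catenin and Tcf. They were found on either strand in 5 of 29 subunits (17.2%) and in 18.2% of all windows. The subunits were Psma1, Psma2, Psmb6, Psmd4 and Psmd10, and again 0 of the 7 windows of subunits that rose had a match. The matches of Psma2, Psmb6 and Psmd10 are shown, with the match in capitals and the other strand's letters (TCAAAG) in Psma2.
Psma2, chr13:14613105-14613160, plus strand: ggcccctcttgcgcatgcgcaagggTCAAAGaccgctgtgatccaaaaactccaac
Psmb6, chr11:70525135-70525190, plus strand: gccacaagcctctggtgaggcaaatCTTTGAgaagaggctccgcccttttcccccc
Psmd10, chrX:140956712-140956765, minus strand: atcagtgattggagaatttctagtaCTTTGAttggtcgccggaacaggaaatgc

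CCAAT boxes were found in 12 of 29 subunits (41.4%) and in 41.1% of all windows, and GC boxes (GGGCGG) in 18 of 29 (62.1%) and 38.2%, both on either strand. GC boxes were in 13 of 17 windows of the regulatory particle and in 5 of 12 of the core. A match is a description of letters and no evidence of a bound site. The 100 bases before the RefSeq start are shown for the 3 subunits with the smallest p in lines 240 and 352, Psmd5, Psmd6 and Psmc5, with GC boxes in capitals. Psmc5 had neither a GC box nor a CCAAT box in these bases. In the mm10 positions of the files, each of these windows overlaps the gene's span.
Psmd5, chr2:34870963-34871062, minus strand: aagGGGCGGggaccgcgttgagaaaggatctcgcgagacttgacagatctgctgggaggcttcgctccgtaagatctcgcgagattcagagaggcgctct
Psmd6, chr14:14120946-14121045, minus strand: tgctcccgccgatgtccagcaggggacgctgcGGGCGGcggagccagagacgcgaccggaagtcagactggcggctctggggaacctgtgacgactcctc
Psmc5, chr11:106256085-106256184, plus strand: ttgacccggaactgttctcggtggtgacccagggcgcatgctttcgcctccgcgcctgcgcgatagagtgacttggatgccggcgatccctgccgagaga

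Reads of some subunits may be shared with genes of nearly the same sequence, since how reads with several matches were handled is not given in the sources used here. Of 36 subunits, 10 shared at least 300 bases at 95% identity with another gene. For 3 of them, the counts listed under the copies exceeded 5% of the subunit's own counts, at 6.71% for Psma3 (4 predicted genes), 5.30% for Psmd11 and 5.93% for Psmd13, where the copy is the overlapping gene Sirt3. These percentages do not bound the error, since reads with several matches may have been listed under neither gene. The values of all 10 subunits are uncertain by an amount that was not measured, as are those of Psma2, which overlaps the gene AW209491.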

How the data were processed

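Libraries were stranded and poly(A)-selected. The raw counts per gene deposited by the authors carry no normalization. HISAT2, HTSeq, edgeR and mm10 appear in the submitters' processing notes, while the study names TopHat as aligner. The sources used here give neither versions nor an annotation. Per the labels, each library was run in 2 lanes, which were summed. A heatmap description in the study speaks instead of separate cultures of each line, in which case a line would hold more than 1 sample per group. The labels were followed. Over genes with at least 10 counts, chi-square per degree of freedom between lanes was 0.98 to 1.02 in lines 240 and 242, and 2.05 (PKF118-310) and 2.01 (control) in line 352. Each line supplies a treated and a control library and was a block. The paired libraries deviated together from the group means (correlations 0.67, 0.30 and 0.79 for lines 240, 242 and 352). With 1 library per line and group, p-values measure only how these lines vary.

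The summed counts went into edgeR 4.0.16 under R 4.3.3 (filterByExpr, TMM, quasi-likelihood F test, 2-sided, Benjamini-Hochberg adjustment over all genes tested, threshold 0.05), in all 3 lines (10331 genes) and in lines 240 and 352 (11760 genes). Changes within a line used a prior count of 2 and no test, or exact binomial counting intervals (95%). TMM factors came from the genes tested in the fit of 3 lines. For scaled CPM and changes within a line they were applied to all counts of a library. The tested genes held 92.5% of the counts in the treated library of line 242, against 98.9% to 99.6% in the others. Its scaled values are therefore somewhat lower than on the scaling of the fit. Intervals, and the limit of 3 counts for a gene at 0, cover counting error only. Levels per kilobase used GENCODE vM21 exon unions. The scripts were tested on simulated data. Alternatives were no block, DESeq2 size factors, library totals, DESeq2 1.42.0, edgeR's likelihood ratio test, limma 3.58.1 voom with sample weights, no filter, a mean of at least 10 CPM, each lane alone and each line left out. Fits without mitochondrial counts, and other scalings within lines, were added after seeing the data.

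The subunits, gene lists and the fit without line 242 were chosen with earlier results of these data known. Values in every library are given by a rule for Psmb5, Psmb6, Psmb7, up to 3 subunits per class with the smallest p in lines 240 and 352 and the 1 with the largest. Psmd3, Psmd8 and Psmd14 were added after their values were seen. For each related list, the 2 genes with the smallest p are named. A further list is not reported here.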

Additional observations from a re-analysis of the deposited data

Results flagged for a closer look

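The subunits moved in opposite directions in different lines. The median log2 change, PKF118-310 over control, of all 34 subunits tested was -0.44 in line 242, against 0.32 in line 240 and 0.17 in line 352. For the core it was -0.46 in line 242, against 0.31 and 0.16 in lines 240 and 352, and for the regulatory particle it was -0.43, against 0.32 and 0.18. Single subunits showed the same split, with 26 of 34 higher in lines 240 and 352 and lower in line 242. The difference between the lines was not tested, since each line had 1 library per group.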

How the results depend on the processing

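In the fit of 3 lines, the count of subunits that rose was 0 with edgeR's quasi-likelihood test and 3 with limma voom and sample weights (Psmc2, Psmd6 and Psmd5). Leaving out each line in turn gave 0 to 8, with 8 without line 242. Psmc4 turned with line 242. Its log2 change was 0.00 in 3 lines and ran from -0.33 without line 240 to 0.40 without line 242. In the fit of lines 240 and 352, 8 subunits rose with the replicate block (the line), and 0 with no replicate block, 0 with DESeq2, 3 with the stricter filter and 5 with lane 2 alone. Over all genes tested, 589 rose with the block, and 0, 107, 263 and 349 under these other settings, so fewer genes passed in general. The block changed no other count of subunits. Subunits that differed between lines numbered 0 in 3 lines and 0 to 11 with a line left out, with 11 without line 242. The causes were not tested. The median log2 change of all subunits in 3 lines, 0.09, turned to -0.11 without line 240 and -0.03 without line 352, and was 0.24 without line 242. The core turned likewise (-0.10, -0.02 and 0.22), as did the regulatory particle (-0.11, -0.03 and 0.25). In all, 121 counts and medians, these included, moved by at most 1.5 times (counts) or 1 SD between the lines (medians). In 3 lines this SD was wide, since the medians of all subunits within lines ran from -0.44 (line 242) to 0.32 (line 240). Medians that changed sign stayed within it, so the 121 are no measure of stability. For named subunits, 489 values kept the call or the lack of one, 25 lost and 10 gained the call. The 489 include values whose sign turned without a call in either fit. Psmb7 in 3 lines is an example, with a log2 change of -0.10, against 0.29 without line 242. Without a filter the median log2 change of all genes moved to 0.51 in 3 lines, against 0.01 with it. Limits are 1 library per line and group, and depth in the treated library of line 242, with 604984 counts against at least 3160824 in each of the others.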
